A study of Mus musculus with 8 samples.

Results

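Klf6 is a zinc-finger transcription factor of the Krüppel-like (Klf/Sp) family, whose members bind GC-rich boxes and CACCC-type boxes in DNA. In the oligodendrocyte lineage, oligodendrocyte progenitors (OLP) leave the cell cycle, become immature oligodendrocytes (iOL) and later make myelin. Thyroid hormone (triiodothyronine, T3) is a classical signal for that step. Chromatin immunoprecipitation with sequencing (ChIP-seq) recovers the DNA fragments that an antibody against a protein pulls down. Sequenced fragments (tags) that accumulate at a place form a peak, and the summit of a peak is the position with the most tags. Large parts of the mouse genome consist of repeated sequence, present in many nearly identical copies, and a short read from such sequence can match many places.

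The regions described here are the Klf6 peaks of both T3-treated replicates that had no peak nearby in either OLP replicate. A peak of iOL replicate A on chromosomes 1 to 19 was a member when an iOL B peak lay at a gap of at most 500 bp and no peak of OLP A or OLP B lay at a gap of at most 500 bp. The rule found 350 members among the 8912 iOL A peaks on these chromosomes, which is 3.93%, and among 36280 peaks in all 4 lists. Members were thus selected on the presence of peaks in these same samples, so their strength and their absence from the OLP lists are descriptions and not findings.

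All cells were primary mouse OLP of strain C57BL/6, grown with the mitogens PDGF-AA at 10 ng/ml and bFGF at 20 ng/ml. The OLP samples were untreated. The iOL samples were exposed for 18 h to T3 at 40 ng/ml, and each stage had 2 biological replicates (A and B). Both stages were precipitated with the same polyclonal Klf6 antibody, and no sample from cells without Klf6 was analysed here, so the signal that the antibody gives without its target is not known. The ChIP lists hold no expression values, so the cell type could not be checked against its markers.

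The 4 lists held 10225 peaks in iOL A, 5777 in iOL B, 12451 in OLP A and 7827 in OLP B. Tags in peaks summed to between 105081 in iOL B and 152149 in OLP A. The weakest listed peak held 7 tags in both A lists, 10 in iOL B and 9 in OLP B. A peak that is not listed was not called, which does not show that no Klf6 was bound there. The share of peaks in mostly repeated sequence, over all chromosomes, ran from 74.6% in OLP B to 90.3% in iOL A.

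Several members held closely similar stretches of sequence, although they lay on different chromosomes or far apart on the same one. The pairs shown first are members named by a rule on strength and distance, and each sequence is the plus strand of mm9. Capitals mark the stretch that aligned with the other peak of the pair. The first pair, near the vomeronasal receptor gene Vmn2r114 (chr17:23462730-23462859) and the olfactory receptor gene Olfr707 (chr7:114037694-114037858), aligned over 93 bases at 92.5% identity.
Vmn2r114: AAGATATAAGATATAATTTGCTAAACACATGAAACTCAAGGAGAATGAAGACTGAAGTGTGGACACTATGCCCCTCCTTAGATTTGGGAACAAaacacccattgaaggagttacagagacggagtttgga
Olfr707: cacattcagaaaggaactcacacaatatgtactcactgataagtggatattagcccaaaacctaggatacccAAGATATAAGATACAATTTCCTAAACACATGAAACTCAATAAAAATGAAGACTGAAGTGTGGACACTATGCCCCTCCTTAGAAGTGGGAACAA
The second pair lay near Zfp606 (chr7:13059677-13059764), a zinc-finger gene, and Olfr17 (chr7:114232792-114232960), an olfactory receptor gene. It aligned over 69 bases at 94.2% identity.
Zfp606: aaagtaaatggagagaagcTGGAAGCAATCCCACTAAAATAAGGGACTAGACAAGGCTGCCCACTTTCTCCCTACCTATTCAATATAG
Olfr17: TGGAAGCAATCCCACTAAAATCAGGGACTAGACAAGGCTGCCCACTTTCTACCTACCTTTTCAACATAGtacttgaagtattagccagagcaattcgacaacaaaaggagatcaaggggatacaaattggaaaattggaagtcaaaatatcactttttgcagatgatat

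The next 3 sequences show the range from mostly repeated stretches to no repeated stretch. Here capitals mark bases of repeated stretches, meaning runs of 32 bases with a second copy anywhere in the genome, on any strand. They are the members near Cxxc4 (chr3:133888068-133888212), Ncoa2 (chr1:13367485-13367673) and Rfxank (chr8:72659791-72659979), on the plus strand of mm9.
Cxxc4: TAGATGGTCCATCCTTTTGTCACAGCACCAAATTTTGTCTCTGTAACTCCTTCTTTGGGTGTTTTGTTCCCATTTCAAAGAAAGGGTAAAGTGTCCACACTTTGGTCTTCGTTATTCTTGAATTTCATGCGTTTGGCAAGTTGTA
Ncoa2: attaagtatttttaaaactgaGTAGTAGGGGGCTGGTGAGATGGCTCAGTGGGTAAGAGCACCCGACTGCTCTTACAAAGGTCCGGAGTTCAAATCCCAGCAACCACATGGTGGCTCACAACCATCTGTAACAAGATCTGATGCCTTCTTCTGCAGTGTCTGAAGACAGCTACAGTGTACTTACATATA
Rfxank: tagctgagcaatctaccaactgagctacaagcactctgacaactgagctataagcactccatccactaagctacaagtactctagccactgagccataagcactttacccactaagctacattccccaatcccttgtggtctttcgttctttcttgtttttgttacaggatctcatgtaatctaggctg
In the Cxxc4 member 87.7% of the stretches of 32 bases were repeated, with a median of 5 copies. In the Rfxank member no stretch of that length occurred a second time. Shorter or inexact copies are not counted by this measure.

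To see how common the members were, every iOL A peak was sorted by which of the other 3 samples had a peak at most 500 bp away. The most frequent outcome was a peak of iOL A alone, with 4166 peaks, followed by peaks of all 4 samples, with 1656. A further 1025 peaks were shared with OLP A only, 715 with iOL B and OLP A, 504 with OLP A and OLP B, 311 with OLP B only and 185 with iOL B and OLP B. The 350 members were therefore fewer than the peaks that iOL A shared with OLP A only and more than those shared with OLP B only. The lists differ in length, with 5211 peaks in iOL B, 10781 in OLP A and 7069 in OLP B on these chromosomes. Of the 2906 iOL A peaks with an iOL B partner, members were 12%, and the others also had an OLP peak. The mirror rule, OLP A peaks with an OLP B peak and no iOL peak, gave 506 of 10781 peaks (4.69%).

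**Figure D1:**
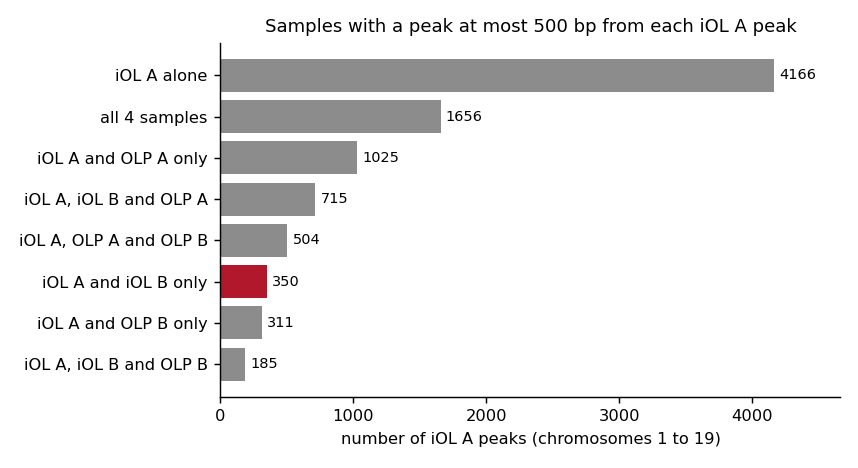
Number of iOL A peaks on chromosomes 1 to 19 (x axis, peaks) by the samples with a peak at most 500 bp away (y axis). The 350 peaks of both iOL replicates only (red) are the sixth of 8 outcomes by number, after 4166 peaks of iOL A alone and 1656 of all 4 samples.

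The count rested on each of the 4 lists. With OLP B as the only OLP list 1065 peaks met the rule, and with OLP A as the only one 535 did. Without the match in iOL B the count was 4516, and iOL B peaks without an OLP peak numbered 1826. Among those 1826 peaks, 12.4% lay in the window around a transcription start site (TSS) that is described later, against 7.71% of members. The 2 shares come from different lists, and the 1826 needed no iOL A partner. The share over all iOL B peaks is not given here. In iOL A, 11.1% of the peaks of iOL A alone and 8.88% of all peaks lay in the window. Started from the iOL B list, the rule gave 340 of 5211 peaks (6.52%).

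The positions in iOL A and iOL B coincided closely. The 350 members matched 342 different iOL B peaks, and 16 members shared their iOL B peak with another member. In 323 members (92.3%) both peaks had at least 1 base in common. The summits lay a median of 6 bp apart, with quartiles at 2 and 15 bp. They were within 10 bp in 230 members and within 50 bp in 309 (88.3%), and over 100 bp apart in 34. For peaks of all 4 samples the median offset between iOL A and iOL B summits was 3 bp, with 94% within 50 bp.

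Most members held few tags, as did the lists as a whole. In iOL A they held 7 to 76 tags with a median of 8, and 118 members had 7 tags, the smallest number listed there. In iOL B they held 10 to 163 tags with a median of 13, and 50 members had 10. The median over all peaks of the list was also 8 in iOL A and 13 in iOL B. Low tag numbers were therefore not particular to members, and the shares of all peaks at these smallest numbers are not given here. The fold enrichment, the ratio of tags at the summit to the background that the peak caller MACS expected, ran from 4.15 to 37.22 in iOL A with a median of 17.37. In iOL B it ran from 4.38 to 21.14 with a median of 10.57. The median in iOL A over all peaks was 14.89, over peaks of iOL A alone 12.41 and over peaks of all 4 samples 22.33. Members thus lay between the peaks seen once and those seen in every sample, a description of values that took part in the selection.

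The MACS score is 10 times -log10 of the p-value of a peak. It had a median of 61.47 in iOL A and 56.47 in iOL B, and both were at least 50 in 181 members and at least 100 in 2. Members were 2.86% of iOL A peaks scoring 40 to 50, 4.99% of those scoring 50 to 100 and 2.29% of the 1222 scoring 100 or more. The false discovery rate (FDR) was at most 0.01% in iOL A. In iOL B it reached 6.22%, and it was 5% or more in 10 members. The lists give no counts per base, so depth allows no interval for a fold enrichment, and a peak of 7 to 13 tags has a large counting error.

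The values in the 2 replicates were only loosely related. Over the 350 members, fold enrichment in iOL A and iOL B had a Pearson correlation of 0.28 and a Spearman correlation of 0.27. For tags the Spearman correlation was 0.15, and the Pearson correlation of log2 tags was 0.60. A few members held far more tags than the rest, up to 76 in iOL A and 163 in iOL B. The upper quartiles were 10 and 14 tags. Such members weigh heavily in the Pearson value, which was not computed without them. These are descriptions across peaks of 2 libraries, and both axes are cut off from below by peak calling.

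**Figure D2:**
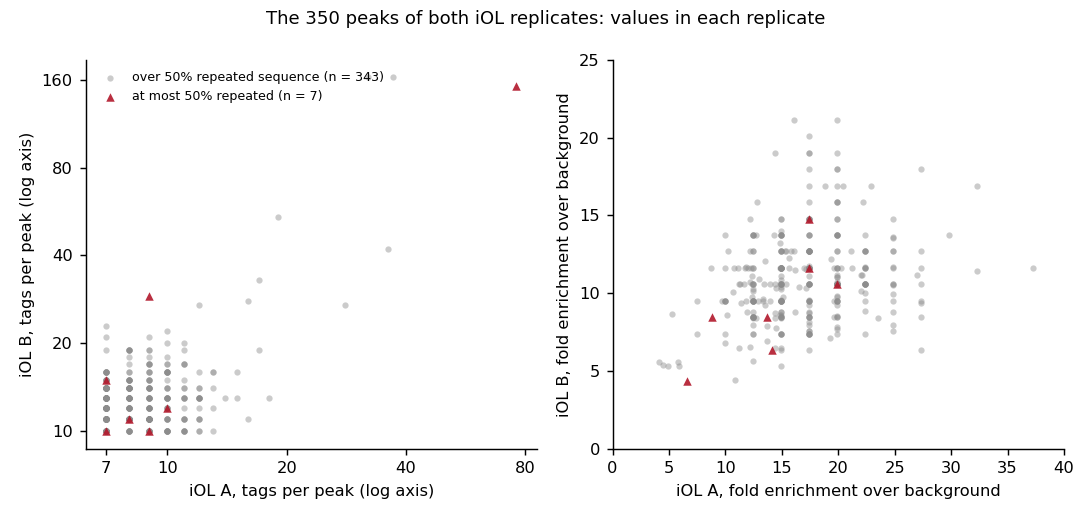
Tags per peak on log axes (left) and fold enrichment over background (right) of the 350 members, iOL A on the x axis and iOL B on the y axis, with 1 point per member. Grey circles are the 343 members in mostly repeated sequence and red triangles the 7 others. Most members lie at the lower left corner of the tag plot, with medians of 8 and 13 tags, and the few members with many tags have low fold enrichment.

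Members were not always far from OLP peaks. The nearer of the OLP peaks lay between 514 and 854242 bp away, with a median of 23902.5 bp. It lay within 1000 bp in 24 members, within 2000 bp in 67, within 5000 bp in 110 (31.4%) and within 100000 bp in 303 (86.6%). When no OLP peak was allowed within 5000 bp, 240 members were left.

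**Figure D3:**
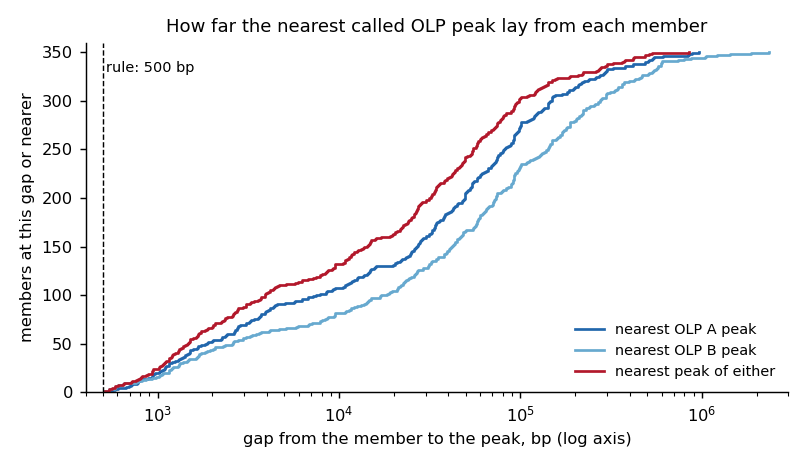
Number of members (y axis) whose nearest OLP peak lay at the gap on the x axis (bp, log axis) or nearer, for OLP A, OLP B and the nearer of both. The dashed line is the limit of 500 bp in the rule. The red curve passes 110 members at 5000 bp and 303 at 100000 bp.

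The limit of 500 bp left close cases on both sides. The largest gaps to iOL B inside the rule were 498 bp, at chr6:60570932-60571017 with 7 tags, and 473 bp, at chr3:11384938-11385051 with 9 tags. Just outside lay chr3:94533008-94533163 with a gap of 503 bp and 7 tags, and chr3:23158629-23158795 with 514 bp and 8 tags. For the OLP peaks, the nearest gap kept was 514 bp at chr15:32774850-32774966 with 10 tags, then 538 bp at chr5:56058024-56058183 with 7 tags. The farthest gaps that removed a peak were 496 bp, at chr3:44064374-44064558 with 17 tags, and 480 bp, at chr1:194491791-194492144 with 25 tags.

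Members were ranked by the smaller of their 2 fold enrichments, and 7 of the 10 strongest had no listed gene. Peak 1, at chr18:66310746-66310992, had 16 tags and a fold enrichment of 19.85 in iOL A, and 28 tags and 21.14 in iOL B. It lay in an intron of Ccbe1, a gene of lymphatic vessel growth, and 511757 bp from the nearest OLP peak. In this member 100% of the stretches were repeated, with a median of 479 copies, and 316 OLP peaks elsewhere had a similar sequence. Peak 5, at chr6:110040879-110040963, had 11 tags and 27.29 in iOL A and 17 tags and 17.97 in iOL B. It was 554655 bp upstream of Grm7, which encodes a metabotropic glutamate receptor. Peaks 2, 3, 6, 8 and 10 lay between genes as well, with 7 to 10 tags in iOL A and 18 or 19 in iOL B. Each of the 10 strongest members was over 50% repeated, and each had between 29 and 396 similar OLP peaks elsewhere.

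The other 3 of the 10 strongest members were listed with a gene. The tenth place was shared by 5 members with a smaller fold enrichment of 16.91, and peak 10 was taken by chromosome order. Bend7, which encodes a BEN domain protein, had a member 7733 bp upstream of its TSS with 8 tags in iOL A and 19 in iOL B, at fold enrichments of 17.37 and 19.03. Vmn2r16, a vomeronasal receptor gene, had one 44855 bp upstream with 9 and 17 tags. Olfr912, an olfactory receptor gene, had one 17658 bp upstream with 9 and 17 tags.

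A TSS was listed by the authors for peaks up to 50 kb upstream or 5 kb downstream of it. Of the 350 members 77 (22%, 95% Wilson interval 18.0 to 26.6) had a listed TSS, and the background over all iOL A peaks was 22.7%. The 77 members named 75 different genes. Between -15 kb and +5 kb of the TSS, the window the study used, lay 27 members (7.71%, interval 5.36 to 11) with 26 genes, against 8.88% of all iOL A peaks. The background lay within the counting interval of the members' share in both cases. Of the 77 members, 50 lay 15 to 50 kb upstream, 16 lay 5 to 15 kb upstream, 8 up to 5 kb upstream and 3 downstream. Intervals here cover counting error only, and members with similar sequence are not independent of each other.

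Few members were close to a start site. Only 3 of the 77 lay within 2 kb of the TSS (3.90%, against 3.96% of iOL A peaks with a TSS) and 1 lay within 1 kb. By the reference annotation of the same build, 0 summits lay in an exon, 65 (18.6%) in an intron and 285 (81.4%) between genes. Over all iOL A peaks 0.864% of summits were in exons, 21.8% in introns and 77.3% between genes.

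The members nearest a TSS were those of Dux, which encodes a double homeobox factor of the early embryo and has near-identical copies in the genome. One lay 643 bp upstream with 28 tags and a fold enrichment of 4.92 in iOL A, and the other 1878 bp upstream with 12 tags and 5.91. Both were matched by the same iOL B peak of 27 tags, with summits 606 and 629 bp away. Vmn2r69 had a member 1816 bp upstream with 7 and 12 tags in iOL A and iOL B. Olfr707 followed at 2186 bp upstream with 12 and 11 tags, and Olfr476 at 2938 bp upstream with 11 and 13. Rfxank, a subunit of the RFX complex that activates MHC class II genes, had a member in its own intron 3237 bp downstream with 9 and 29 tags. Def8 had one 3571 bp upstream with 9 and 10 tags, and Zfp606 one 3932 bp upstream with 7 and 11.

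Among pathway lists, 3 genes had a member. The thyroid hormone list of 21 genes contained Ncoa2, a coactivator of nuclear receptors including the thyroid hormone receptors. All iOL A peaks together named 2 genes of this list. The Ncoa2 member lay 3371 bp upstream of the TSS with 8 tags and a fold enrichment of 17.37 in iOL A and 13 tags and 8.71 in iOL B. In the Ncoa2 member 53.8% of the runs of 32 bases were repeated, and 127 OLP peaks elsewhere had a similar sequence. The list of 32 Wnt, Notch and Bmp pathway genes contained Cxxc4, which encodes an inhibitor of Wnt signaling. All iOL A peaks named 1 gene of this list. The Cxxc4 member lay 11297 bp upstream with 7 tags and 12.41 in iOL A and 12 tags and 9.51 in iOL B. By the reference annotation its summit lay in an intron of Gm2078, and 413 OLP peaks elsewhere had a similar sequence.

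Egr1, an immediate early zinc-finger factor, was the only gene with a member in a list of 91 transcripts that respond to Klf6 silencing in iOL. The member lay 4832 bp downstream of the TSS with 8 tags and 8.78 in iOL A and 11 tags and 8.46 in iOL B. Its iOL A and iOL B peaks lay 52 bp apart without overlap, their summits 226 bp apart, and an OLP B peak lay 4667 bp away. By the reference annotation the iOL A summit lay between genes, and the nearest start was that of Gm17507, 928 bp away. Cxxc4 was the only one in the corresponding list of 212 transcripts for OLP. Over all iOL A peaks these 2 lists had 8 and 10 genes.

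No member was listed with any of 13 progenitor markers, 20 lineage regulators, 24 myelin genes, 26 Klf and Sp factors, 23 genes of the gp130-Stat3 pathway, 17 importin genes or 29 markers of neurons, astrocytes and microglia. All iOL A peaks together named 0, 0, 2, 2, 2, 2 and 1 genes of these lists, so counts of 0 among 77 members with a gene carry little information.

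Olfactory receptor genes were the most frequent of the gene families counted by symbol. Olfactory receptors, which detect odorants in the nose, were listed for 13 of the 77 members (16.9%), against 9.36% of the 2020 iOL A peaks with a TSS. Vomeronasal receptors, which detect pheromones, were listed for 6 (7.79% against 5.59%). Together they were 19 members (24.7%, against 15% of all). Predicted genes with Gm symbols were listed for 9 (11.7% against 8.96%) and RIKEN clones for 6 (7.79% against 7.57%). In the window olfactory and vomeronasal receptors together were listed for 11 of 27 members, against 158 of 791 iOL A peaks (20.0%). These receptor genes sit in large clusters of similar genes, and each of the members listed with them that is named here was over 50% repeated. The part of the repeated sequence in these counts was not tested.

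Receptor members had between 7 and 12 tags in iOL A and between 10 and 19 in iOL B. The Olfr17 member, 8138 bp upstream, had 10 tags and a fold enrichment of 19.85 in iOL A and 16 tags and 15.86 in iOL B. The Vmn2r114 member, 13541 bp upstream, had 11 and 14 tags, and the Olfr361 member, 12669 bp upstream, had 7 and 14. The Vmn1r167 member lay 4929 bp downstream with 9 and 10 tags, and an OLP B peak was only 578 bp away. The Olfr1312 member, 12299 bp upstream, had 7 and 13 tags and an OLP A peak 932 bp away.

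The remaining named members of the window had other kinds of genes. The Nobox member, 7138 bp upstream of this oocyte transcription factor gene, had 8 and 15 tags over a run of short repeated units. The Nipa1 member, 12233 bp upstream of a magnesium transporter gene, had 9 and 14 tags. Members of Ces2d-ps, a carboxylesterase pseudogene, and of 4930448F12Rik and 5430427M07Rik had 8 to 12 tags in iOL A and 13 or 14 in iOL B.

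Repeated sequence was the feature that nearly all members shared. A peak was called mostly repeated when over 50% of its runs of 32 bases had a second copy somewhere in the genome. This held for 343 of 350 members (98.0%, interval 95.9 to 99), where the background over all iOL A peaks was 89.3%. In 225 members (64.3%, against 62.1% of all iOL A peaks) every such run was repeated. The median number of copies of a stretch in the genome had a median of 193 over members and reached 16965. It was 10 or more in 318 members (90.9%, against 82.1% of all iOL A peaks), 100 or more in 203 (58.0% against 55.0%) and 1000 or more in 140 (40.0% against 36.8%).

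Of the peaks of iOL A alone 79.7% were mostly repeated, whereas the share was between 95.5% and 99% in each of the 6 other patterns with a partner sample. Members were 4.31% of the 7957 mostly repeated iOL A peaks and 0.733% of the 955 others. An iOL B peak lay nearby for 35.9% of the mostly repeated peaks and for 5.13% of the others. Of the 640 iOL A peaks without any repeated stretch, 4 had an iOL B peak, 1 had an OLP A peak and 0 had an OLP B peak. How Bowtie2 was set for reads that match several places is not given in the sources used here, and its part in these shares was not tested.

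The same sequence was often called elsewhere in OLP. By BLAST (E value at most 1e-10 over at least 50% of the peak), 334 members (95.4%, interval 92.7 to 97.2) were similar to an OLP peak over 500 bp away or on another chromosome. The background over all iOL A peaks was 82.3%. It was 68.2% for peaks of iOL A alone and 88.4% to 99.5% in the other patterns with a partner sample. A high share was therefore not particular to members. A member had a median of 324.5 such OLP peaks, against 299 over all iOL A peaks and 348 over peaks of all 4 samples. The closest one was a median of 99.3% identical in the aligned stretch, which covered at least 50% of the member. Every base of that stretch was identical for 159 members (45.4%, against 39.5% of all iOL A peaks). The members were thus called in iOL only at their own positions, while OLP lists held peaks of much the same sequence at other positions.

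**Figure D4:**
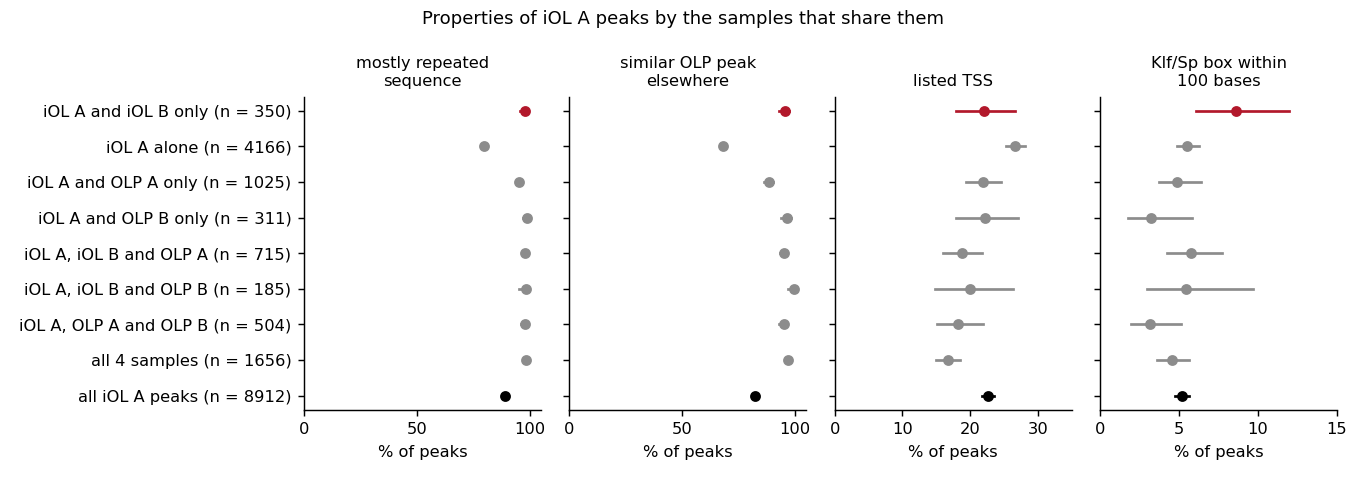
Percent of iOL A peaks (x axes) that were mostly repeated, were similar to an OLP peak elsewhere, had a listed TSS or had a Klf/Sp box within 100 bases of the summit, for each pattern of samples (y axis, number of peaks in brackets). Points are shares and lines 95% Wilson intervals. Members (red) lie at 98.0%, 95.4%, 22% and 8.57%, and all iOL A peaks (black) at 89.3%, 82.3%, 22.7% and 5.17%.

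Members were also similar to each other. Joined wherever BLAST found them similar, 322 members fell into groups with at least another member and 28 were similar to none, which gave 45 groups. Groups were chained, so not every pair within a group was similar. The largest had 103, 87 and 37 members, together 227 (64.9%). The next had 21, 13, 12, 10 and 10. The pair of Vmn2r114 and Olfr707 shown above was in group 1, and the pair of Zfp606 and Olfr17 was in group 2.

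The groups differed in copy number and base composition. Group 1 had a median of 225 copies per stretch and a median GC content of 42.6%, and group 2 had 1854 copies and 37.6%. Group 3 had 505 copies and 37.2%, and group 8 had 929.25 copies and 44.1%. Median fold enrichment in iOL A ran only from 14.89 to 17.37 over the 8 groups, and from 9.51 to 11.38 in iOL B.

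Peaks with these sequences made up much of every list, here with chromosomes X and Y included. Peaks similar to group 1 or in it were 18.6% of all iOL A peaks, 22.5% of iOL B, 17.7% of OLP A and 15.6% of OLP B peaks. For group 2 the shares were 21.8%, 23.3%, 20.4% and 19.4% in the same order. For group 3 they were 9.77%, 11.2%, 9.35% and 10.6%. Peaks similar to any member were 72.8% of iOL A, 82.2% of iOL B, 69.7% of OLP A and 66.9% of OLP B peaks. Only iOL A sequences were used as queries.

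**Figure D5:**
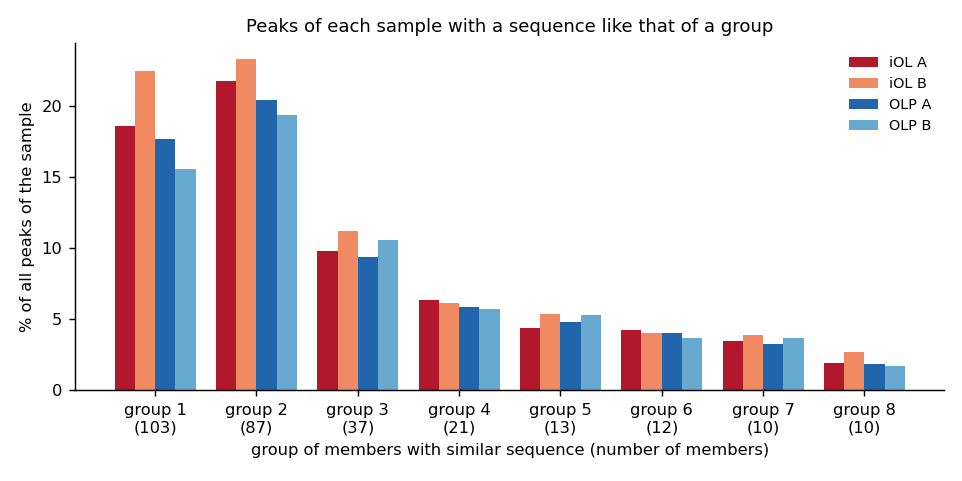
Percent of all peaks of each sample (y axis) that were in or similar in sequence to each of the 8 largest groups of members (x axis, number of members in brackets). Colours are the 4 samples. Each group has similar peaks in all 4 samples, for example 18.6%, 22.5%, 17.7% and 15.6% for group 1.

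Boxes of the kind that Klf and Sp factors bind were uncommon at members. The letters CCACCC or CCGCCC were searched on both strands within 100 bases of the summit. They were found in 30 members (8.57%, interval 6.07 to 12), 28 with CCACCC and 2 with CCGCCC, and the background over all iOL A peaks was 5.17%. The share over the other patterns ran from 3.17% to 5.73%. Of the 30 members 11 were in group 1, 5 in group 8 and 1 in group 4, and groups 2, 3, 5, 6 and 7 had 0. Members of a group share much of their sequence, so these matches are not separate observations. With 50 bases on each side the share was 3.71% against 2.31%, and with 250 bases it was 18.9% against 14.9%.
The member of 5430427M07Rik (chr12:92270545-92270737, plus strand of mm9) is shown as an example with the box inside the peak, and capitals mark the box.
5430427M07Rik: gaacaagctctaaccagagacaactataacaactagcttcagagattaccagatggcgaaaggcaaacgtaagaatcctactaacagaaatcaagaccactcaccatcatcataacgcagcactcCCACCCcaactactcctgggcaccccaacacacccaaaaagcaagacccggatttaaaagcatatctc

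Other motifs of interest in the lineage were found at members and at all iOL A peaks as follows. AGGTCA, the core bound by thyroid hormone receptors, was within 100 bases of the summit on either strand in 10.3% of members and 10.4% of all. TTCNNNGAA, the palindrome of Stat factors, was in 14.0% and 12.4%. ACAAAG, a Sox core, was in 21.1% and 20.1%, and CAGCTG, an E-box, in 3.43% and 2.36%. A match is a description of letters and not a site. Median GC content of the peaks was 39.1% for members and 38.3% for all iOL A peaks.

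The 7 members that were not mostly repeated are named here after their values were seen. The Rfxank member, shown above, the Egr1 member and chr15:24852352-24852545 had no repeated stretch at all. The chromosome 15 peak had 10 tags in iOL A and 12 in iOL B, at fold enrichments of 14.15 and 6.34, with summits 125 bp apart. The Rfxank member had summits 29 bp apart and fold enrichments of 17.37 and 11.63, and its nearest OLP peak lay 292373 bp away.

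The other 4 were 50% repeated or less. They lay at chr14:93325908-93325996, chr6:100168364-100168507, chr9:112991443-112991598 and chr5:147072484-147072944. The first 3 had 7 to 9 tags in iOL A and 10 to 15 in iOL B. The last, listed with the ubiquitin ligase gene Rnf6 and lying in an intron of the Mediator kinase gene Cdk8, had 76 and 152 tags but fold enrichments of only 6.59 and 4.38. Of these 7 members, the one on chromosome 14 had a similar OLP peak elsewhere and the other 6 had none.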

How the data were processed

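Klf6 ChIP-seq of 2 OLP and 2 iOL replicates was used. The 4 input samples have no list of their own. The methods state 4000000 cells per sample. After a quality filter, the authors mapped reads with Bowtie2 to mm9 and ran MACS on every ChIP sample with input as control, then added distances to RefSeq starts. CASAVA 1.8 is named in the submitters' processing notes. The MACS version and read totals are not given in the sources used here.

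The deposited lists hold raw tag counts per peak, a MACS score (10 times -log10 of the p-value), fold enrichment as a linear ratio and FDR in percent. No value was scaled across samples, and comparisons therefore rest on position. Depth is known only through tags in peaks, which limits the precision of weak peaks.

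Gaps, repeats (32 bases), GC content and motifs were computed on NCBIM37, the same build as mm9, with GENCODE vM1 genes. Gap, repeat and motif functions were tested on simulated data and recovered every planted item. Similarity used BLAST 2.17.0 with low-complexity filtering. Scripts ran in Python 3.11.15 with networkx 3.6.1, pysam 0.24.0, pandas 2.3.3, numba 0.67.0, numpy 2.4.6, matplotlib 3.10.9 and scipy 1.17.1. No test was made, since the rule uses the calls themselves and peaks of a sample are not replicates.

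The members and lists were chosen with earlier results of these data known. Members named are the 10 with the largest smaller fold enrichment, the 15 largest in the window, the 10 nearest a TSS and all with a gene of a pathway list. Alternatives were other gaps, minimum tags, scores and FDR, each sample left out, the list that gives the members, chromosomes X and Y, motif windows, stretches of 50 bases, reference starts and stricter BLAST limits. The stricter BLAST limits were chosen after seeing the data. Some sequences are not reported here.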

Additional observations from a re-analysis of the deposited data

Results flagged for a closer look

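Chromosomes X and Y are outside the rule. Their peaks counted above only in descriptions of whole lists, among similar OLP peaks and in the shares of each list similar to members. By the same gaps, 36 iOL A peaks there had an iOL B peak and no OLP peak, which is what drew attention to them. All 36 lay among the 1265 iOL A peaks of chromosome X (2.85%), and 0 of the 48 on chromosome Y met the gaps. All 36 were mostly repeated and 8 had a listed TSS. Their median fold enrichment was 14.89 in iOL A and 10.57 in the matched iOL B peaks. There is no control sample to set this count against.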

How the results depend on the processing

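With at least 10 tags in both iOL peaks 98 members were left, with boxes in 12.2%, a median GC content of 38.3% and a similar OLP peak for 91.8%. With at least 15 tags 10 were left, with boxes in 50%, mostly repeated sequence in 90%, GC of 48.3% and a similar OLP peak for 70.0%. Those with a box at this limit had the lowest smaller fold enrichments of all members, 4.15 to 4.92. The shares of all iOL A peaks at these tag limits were not computed. A score of at least 50 left 181 members, and of at least 100 left 2, with a listed TSS, a TSS in the window and a box in 0%, repeated sequence and a similar OLP peak in 100% and GC of 40.4%. Leaving out a sample in turn gave 535 to 4516 members, a listed TSS in 19.8% to 28.4%, the window in 6.76% to 12.4%, boxes in 5.74% to 8.32%, repeated sequence in 70.1% to 98.1%, GC of 38.6% to 39.1% and a similar OLP peak in 70.3% to 96.8% (not computed without iOL A). Boxes within 50 bases were in 3.71% and within 250 bases in 18.9% of members. Stretches of 50 bases made 86.6% mostly repeated (82.0% of all iOL A peaks), and starts of the reference annotation put 14.3% in the window (18.1% of all). Settings with fewer members rest on fewer peaks by construction, and otherwise the cause was not tested. The remaining alternatives (gaps of at least 1 shared base and 1000 bp, no OLP peak within 5000 bp, FDR under 5%, the iOL B list, chromosomes X and Y, and stricter BLAST limits) moved each result they applied to by less than its interval, or the count by less than 1.5 times. No paired analysis was possible because the result comes from no test. Weak peaks of 7 to 13 tags limit every count.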

Other observations

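Members lay on all 19 chromosomes of the rule, from 4 on chromosome 19 to 32 on chromosome 3. Per 100 Mb there were 4.10 on chromosome 11, 6.45 on chromosome 9 and 6.52 on chromosome 19, the 3 lowest, and 20.7 on chromosome 6, the highest. As a share of iOL A peaks they ran from 1.99% on chromosome 11 to 5.82% on chromosome 18. Members seldom sat together, with 10 pairs of neighbours within 2 kb.

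The 5 members with 20 tags or more in iOL A are 1.43% of members, against 3.86% of all iOL A peaks, and were looked up after their values were seen. They lay at chr18:54858719-54859032, chr16:57391224-57391553, chr16:57391575-57391785, chr10:57695831-57696207 (Dux) and chr5:147072484-147072944. Their fold enrichment in iOL A was 10.66, 5.82, 4.15, 4.92 and 6.59 in that order, below the median of 17.37 over members in each case. Both chromosome 16 members were matched by the same iOL B peak of 163 tags.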
